A study of Mus musculus with 6 samples.

Results

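Genes switched on by interferons and genes of antigen presentation were followed in MS-1 cells, an endothelial line from mouse pancreatic islets that was immortalised with the large T antigen of SV40. The set held 49 genes, picked by symbol for these functions, and all 49 were among the 29955 gene names of the deposited table. Their values are FPKM, the fragments of an RNA scaled to its length and to all mapped fragments of the library. Cells had been transfected with a locked nucleic acid inhibitor of miR-31, one of miR-27 or a negative-control inhibitor, and each transfection was kept for 72 h with 1 ng/ml TGF-β2 or without TGF-β2. Every condition had 1 library, which makes 6 libraries of 1 cell line and no replicates. Separate cultures are not named in the labels, and p-values here reflect no more than the scatter of these libraries, which may be technical. Within each TGF-β2 state, 3 values in a row are those with the miR-31 inhibitor, the miR-27 inhibitor and the negative control, in this order.

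Interferons are secreted when cells sense viral nucleic acid. Their receptors activate JAK kinases, which phosphorylate STAT proteins, and a complex of STAT proteins and IRF9 then binds interferon-stimulated response elements (ISRE) in promoters, while STAT dimers bind gamma-activated sites (GAS). The genes so induced encode sensors, antiviral effectors, ubiquitin-like modifiers and GTPases, and also the immunoproteasome, the peptide transporter and the class I molecules that show peptides to T cells. TGF-β is known as a cytokine that restrains immune responses, and in endothelial cells it drives a transition toward mesenchymal cells.

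All 49 genes averaged at least 1 FPKM and entered the test, as did 11816 of the 29955 gene names. The set was chosen with earlier results of these data known, so counts of its expressed genes are no result about it. Of the 49 genes, 43 were at 10 FPKM or more in every library. Only Mx1 had a library under 1 FPKM. Their summed FPKM lay between 3982 and 4210.3 in the 6 libraries. B2m, the light chain of class I molecules, was the most abundant, at 1365, 1473 and 1544 FPKM with TGF-β2 and at 1384, 1358 and 1386 FPKM without it. The antiviral membrane protein gene Bst2 came next. It was followed by the class I heavy chain genes H2-D1 and H2-K1 and the effector gene Ifit3, which averaged 194, 157 and 103 FPKM over the 6 libraries.

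**Figure D1:**
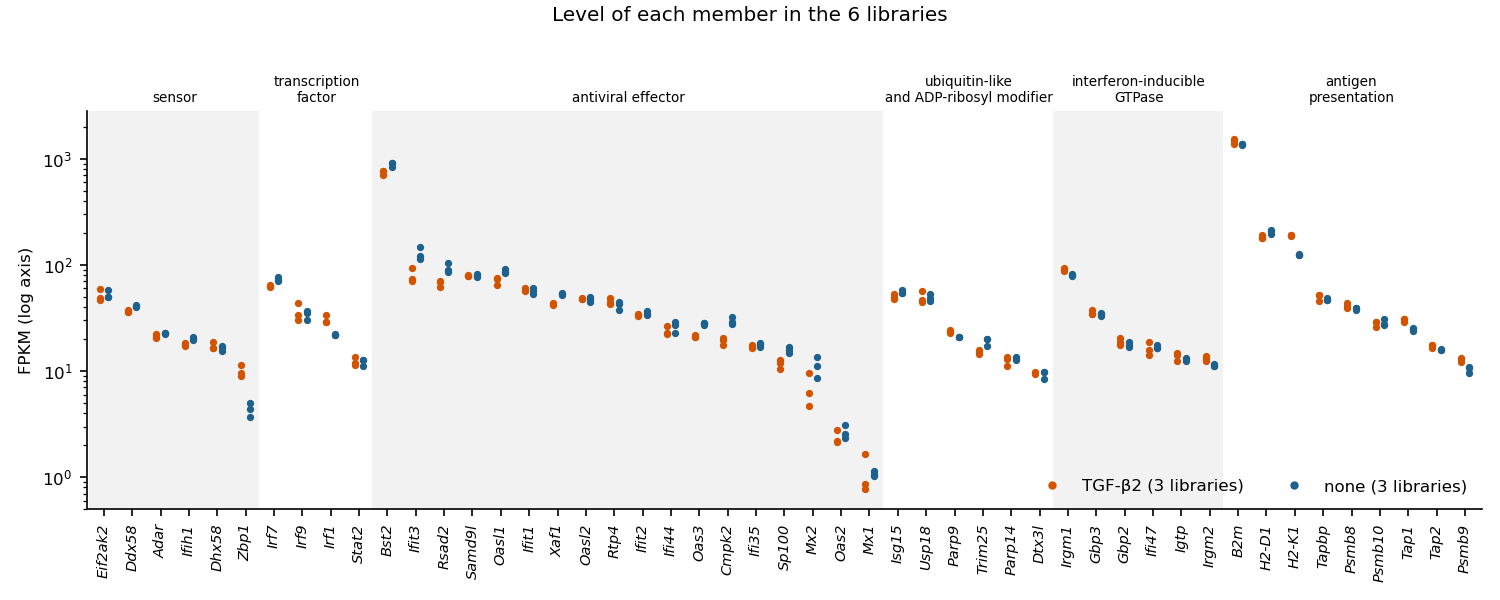
FPKM of the 49 genes on a log axis, by role. Each gene has 3 points for the libraries with TGF-β2 and, to their right, 3 points for those without; B2m is highest, at 1358 to 1544 FPKM, and Mx1 lowest, at 0.769 to 1.65 FPKM.

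The cells carried endothelial markers, of which 10 of 12 averaged at least 1 FPKM, led by Pecam1 at 593 to 647 FPKM, while Cldn5 and Mmrn2 were under 0.2 FPKM. The 12 markers summed to 1838 to 1909 FPKM with TGF-β2 and to 1809 to 1939 FPKM without it. By the limma test described below, 6 of the 10 changed. So did 50.2% of all genes tested, and the count is therefore no result about these markers. Emcn (0.80) and Eng (0.53) rose, and Kdr (-0.80), Egfl7 (-0.41), Esam (-0.39) and Tie1 (-0.33) fell. Of 12 leukocyte markers, 10 stayed under 1 FPKM in every library, Ptprc and Cd3e among them; the list summed to 108 to 138 FPKM with TGF-β2 and to 171 to 213 FPKM without it, most of it Cd68. The 8 epithelial markers summed to 13.7 to 17.6 FPKM with TGF-β2 and to 38.9 to 54.7 FPKM without it, most of it Krt18, with Epcam at 0 throughout. The 6 fibroblast markers summed to 15.7 to 19.8 FPKM with TGF-β2 and to 1.88 to 2.52 FPKM without it, most of it Pdgfra. The 8 pancreas markers stayed at or under 0.235 FPKM. Whether the shifts in these endothelial markers, Cd68, Krt18 and Pdgfra have a part in the results below was not tested. In bulk RNA, a change in the share of cells and a change in RNA per cell cannot be told apart.

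The promoters of the set are shown first, because interferon signals act through elements in promoters. RefSeq (GRCm38.p6) gave windows from 250 bases before to 50 bases after the transcription start for 39 of the 49 genes. The ISRE core searched was GAAANNGAAA and the GAS core TTCNNNGAA, where N is any base, on both strands; matches to either core may overlap. An ISRE core was in 16 of 39 promoters (41.0%), against 3.68% of 7749 tested genes and 3.99% of all 27025 genes with a window. A GAS core was in 9 of 39 (23.1%), against 8.45% of the tested genes and 9.55% of all genes. By role, an ISRE core was in 5 of 6 GTPase promoters, 3 of 4 sensor promoters, 5 of 14 antiviral effector promoters and 1 of 8 antigen presentation promoters, that of B2m. A match is only a run of letters and does not show that a factor binds there. Looser forms of these elements were not searched, so a promoter without a match may still hold one.

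Below are 4 promoters, 5′ to 3′ on the gene's own strand, with matches in capitals. Isg15 is shown for its 3 overlapping ISRE cores, Ifit3 and Rsad2 as effector genes that were lower with TGF-β2 and hold ISRE cores, and Irf1 as a transcription factor gene that was higher and holds a GAS core.
Isg15, chr4:156200769-156201068, minus strand: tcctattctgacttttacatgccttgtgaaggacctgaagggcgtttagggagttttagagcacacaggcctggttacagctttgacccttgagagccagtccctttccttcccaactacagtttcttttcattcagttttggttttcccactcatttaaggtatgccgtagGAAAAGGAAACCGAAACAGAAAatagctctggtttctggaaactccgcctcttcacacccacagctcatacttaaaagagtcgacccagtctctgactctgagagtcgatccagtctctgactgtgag
Ifit3, chr19:34583279-34583578, plus strand: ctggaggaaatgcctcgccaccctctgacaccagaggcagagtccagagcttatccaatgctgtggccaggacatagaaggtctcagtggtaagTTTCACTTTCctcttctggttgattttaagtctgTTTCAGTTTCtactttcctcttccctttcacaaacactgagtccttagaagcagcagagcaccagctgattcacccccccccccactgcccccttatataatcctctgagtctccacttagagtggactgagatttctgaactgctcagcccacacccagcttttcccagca
Rsad2, chr12:26456403-26456702, minus strand: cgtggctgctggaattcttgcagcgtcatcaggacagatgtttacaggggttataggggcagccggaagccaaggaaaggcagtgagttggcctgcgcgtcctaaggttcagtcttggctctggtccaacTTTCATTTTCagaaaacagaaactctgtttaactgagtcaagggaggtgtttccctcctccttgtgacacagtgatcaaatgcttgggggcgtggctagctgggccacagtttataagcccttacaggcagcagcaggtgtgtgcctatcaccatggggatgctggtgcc
Irf1, chr11:53769764-53770063, plus strand: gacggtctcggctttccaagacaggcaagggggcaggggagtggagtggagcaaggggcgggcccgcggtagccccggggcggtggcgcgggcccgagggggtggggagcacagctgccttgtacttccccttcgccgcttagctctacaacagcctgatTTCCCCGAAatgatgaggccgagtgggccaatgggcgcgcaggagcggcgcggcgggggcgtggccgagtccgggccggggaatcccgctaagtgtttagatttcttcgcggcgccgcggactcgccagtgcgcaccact

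The first comparison asks what TGF-β2 does to these genes. Across the 3 transfections, 8 of the 49 genes rose with TGF-β2 and 14 fell, and 27 did not pass. A gene was called where limma, fitted on log2(FPKM + 1) of all 11816 genes averaging at least 1 FPKM with terms for inhibitor and TGF-β2, gave a Benjamini-Hochberg adjusted p under 0.05. The 8 higher genes are 16.3% of the set, against 22.7% of all genes tested. The 14 lower genes are 28.6%, against 27.5% of all genes tested. Both shares lie near or under those of the whole table, so the counts are no result about the set. The same shares of all genes stand behind each group of genes described below. The median response was -0.02 on the log2(FPKM + 1) scale for the 49 genes and -0.02 for all genes tested. Most changes were small: 5 of the 22 called genes changed by at least 0.5 and only Zbp1 by at least 1. With 1 of the 2 negative-control libraries left out, whichever it was, 5 rose and 8 fell, of 3566 calls in all. With 1 of the 2 miR-27 libraries left out, 6 rose and 9 fell, of 3917. The libraries with and without TGF-β2 did not overlap for 9 genes that were higher (18.4%, against 26.8% of all genes) and 15 that were lower (30.6%, against 31.6%).

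**Figure D2:**
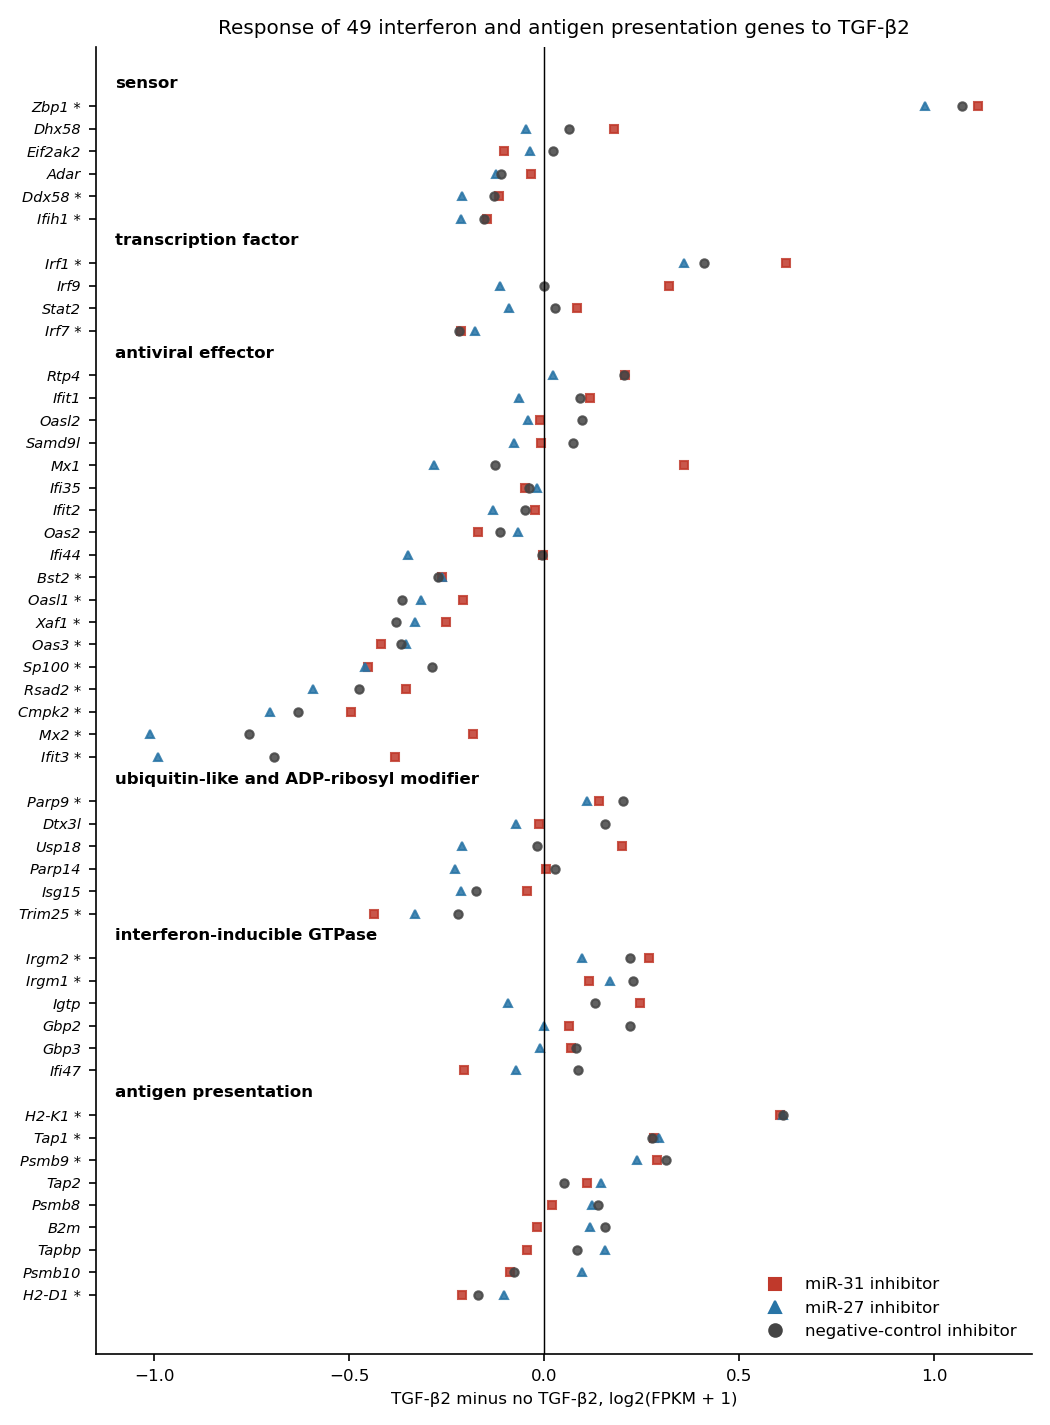
TGF-β2 response of each gene, as the difference in log2(FPKM + 1) between the libraries with and without TGF-β2 in each of 3 transfections, by role; a star marks genes with a limma adjusted p under 0.05. Antiviral effectors reach furthest to the left and Zbp1, at 0.98 to 1.11, furthest to the right.

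Among the 6 sensors, Zbp1 rose and Ifih1 and Ddx58 fell. Zbp1 (mm9 chr2:173032114-173044423) encodes a sensor of Z-form nucleic acid that can trigger inflammatory cell death. It was at 9.05, 9.65 and 11.5 FPKM with TGF-β2, against 3.65, 4.42 and 4.95 FPKM without it. All 3 libraries with TGF-β2 were thus above all 3 without, by 1.05 ± 0.05 (SE of the fit, 6 libraries; limma adjusted p = 0.000148). Ifih1, which encodes the RNA sensor MDA5, was at 17.4, 17.1 and 18.5 FPKM with TGF-β2 and at 19.4, 20.0 and 20.8 FPKM without it (-0.17, adjusted p = 0.0218). Ddx58, which encodes RIG-I, was at 37.7, 36.1 and 36.2 FPKM with TGF-β2 and at 40.9, 41.9 and 39.7 FPKM without it (-0.15, limma adjusted p = 0.0367). Neither gene's groups overlapped, but both calls were lost when a library of the negative control or of the miR-27 inhibitor was left out, with values of -0.15 to -0.18 for Ifih1 and -0.12 to -0.16 for Ddx58. The Ddx58 call was also lost after median-of-ratios rescaling (-0.13) and quantile normalization (-0.09). Dhx58, which encodes the RIG-I relative LGP2 (0.07), Eif2ak2, the kinase PKR that halts translation (-0.04), and the RNA editing gene Adar (-0.09) did not pass.

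Of the 4 transcription factors, Irf1 rose and Irf7 fell. Irf1 (mm9 chr11:53583516-53591876) encodes a factor that binds ISRE-like elements. It stood at 33.8, 29.0 and 29.0 FPKM with TGF-β2, against 21.6, 22.4 and 21.6 FPKM without it. The groups lay apart, by 0.46 ± 0.06 (SE; adjusted p = 0.00424), and the TGF-β2 library of the miR-31 inhibitor was the highest. Irf7, the factor that amplifies type I interferon production, was at 62.4, 62.6 and 65.3 FPKM with TGF-β2 and at 72.5, 71.0 and 76.2 FPKM without it (-0.20, adjusted p = 0.0118). This fall was lost without a negative-control library (-0.20) or a miR-27 library (-0.22). Stat2 (0.01) and Irf9 (0.07), members of the complex that binds ISRE, did not pass.

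Of the 18 antiviral effectors, 9 fell and 0 rose at a limma adjusted p under 0.05, and 10 were lower and 1 higher at an unadjusted p under 0.05. Of all genes tested, 27.5% fell and 22.7% rose, and 31.5% were lower and 26.2% higher at an unadjusted p. The median response was -0.19 for the 18 and -0.02 for all genes tested. Ifit3 (mm9 chr19:34658019-34663472), whose product binds other IFIT proteins that recognise viral RNA, was at 92.6, 73.7 and 70.0 FPKM with TGF-β2, against 121, 147 and 114 FPKM without it. The groups did not overlap, and its fall of 0.69 ± 0.12 (SE; -0.69, adjusted p = 0.0084) had the largest size among the 22 called genes after Zbp1. It missed the threshold when genes of any level were fitted. Mx2 (mm9 chr16:97757688-97782508), a dynamin-like GTPase gene, was at 9.63, 6.17 and 4.71 FPKM with TGF-β2, against 11.1, 13.5 and 8.64 FPKM without it. Here the groups overlapped, since the TGF-β2 library of the miR-31 inhibitor exceeded the negative control without TGF-β2 (-0.65 ± 0.16, adjusted p = 0.0255). The Mx2 call was lost without a negative-control library (-0.60) or a miR-27 library (-0.47) and when genes of any level were fitted.

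Cmpk2 and Rsad2 are neighbours, with starts 12763 bases apart on opposite strands of chromosome 12 in GRCm38.p6, and both fell. Cmpk2 encodes a mitochondrial nucleotide kinase. It was at 19.5, 17.4 and 20.4 FPKM with TGF-β2, against 28.0, 29.0 and 32.1 FPKM without it (-0.61 ± 0.05, adjusted p = 0.0011). Rsad2 encodes viperin, an enzyme that makes a chain-terminating nucleotide. It was at 69.8, 68.6 and 61.6 FPKM with TGF-β2, against 89.6, 104 and 86.0 FPKM without it (-0.48 ± 0.06, limma adjusted p = 0.00298). Neither gene overlapped between the groups, and both calls held in all 12 alternative settings.

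The other 5 effector genes that passed fell in smaller steps, each with all libraries with TGF-β2 under all those without. Sp100, a gene of nuclear bodies, was at 10.5, 11.9 and 12.7 FPKM with TGF-β2 and at 14.7, 16.8 and 15.7 FPKM without it (-0.40, adjusted p = 0.00361). Oas3, which encodes a 2′-5′-oligoadenylate synthetase that activates RNase L, was at 20.8, 21.8 and 20.7 FPKM with TGF-β2 and at 28.2, 28.2 and 27.0 FPKM without it (-0.38, adjusted p = 0.00186). Xaf1, a gene that favours apoptosis, was at 43.5, 42.3 and 41.9 FPKM with TGF-β2 and at 52.0, 53.5 and 54.9 FPKM without it (-0.32, adjusted p = 0.00443). The next was Oasl1, a relative of the synthetases without their activity that restrains Irf7 translation in mice. It was at 74.7, 73.2 and 64.5 FPKM with TGF-β2 and at 86.5, 91.3 and 83.3 FPKM without it (-0.30, adjusted p = 0.00707), and missed the threshold without a negative-control library (-0.26). Bst2 encodes tetherin, which holds budding virus at the cell surface. It was at 763, 763 and 695 FPKM with TGF-β2, against 916, 916 and 840.3 FPKM without it (-0.27, adjusted p = 0.00484), the largest fall in FPKM of any gene of the set.

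**Figure D3:**
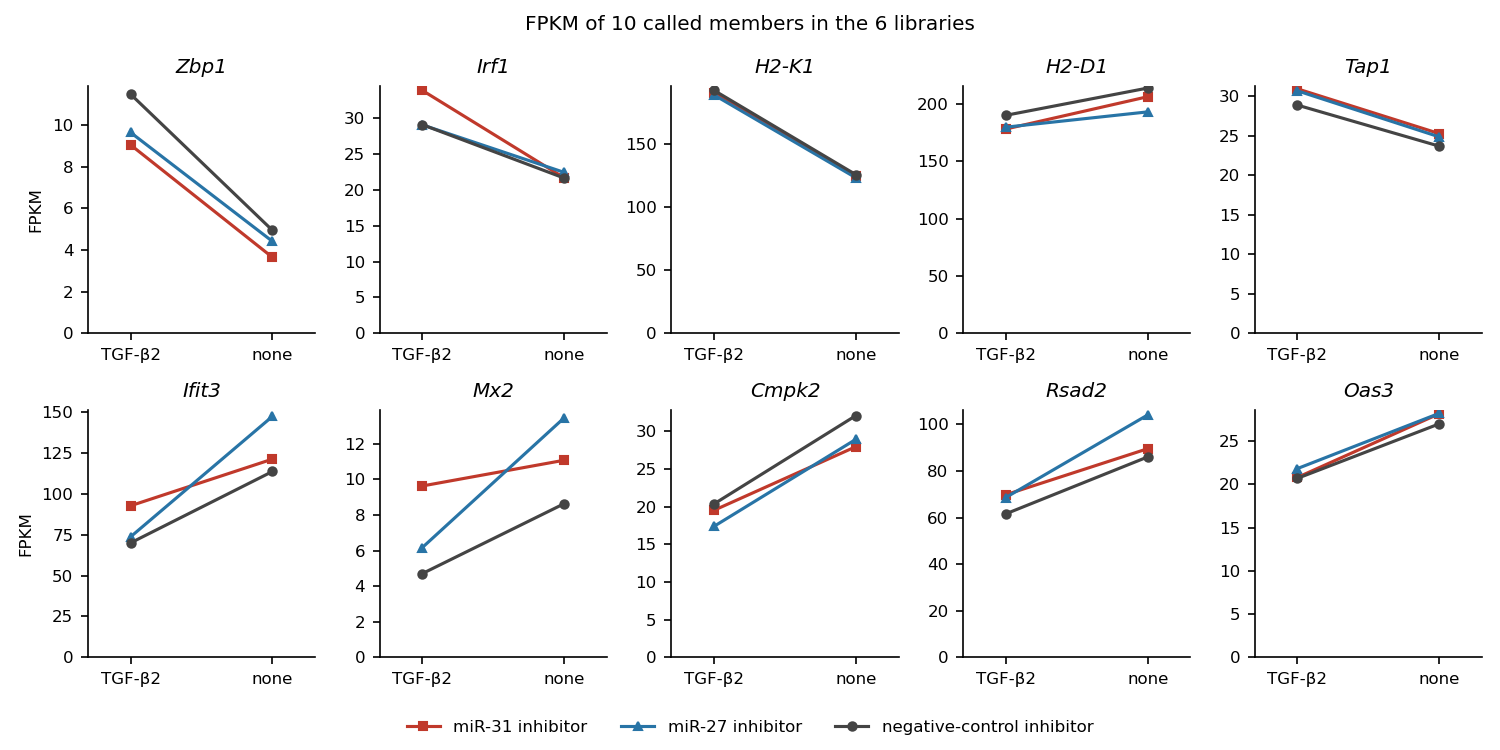
FPKM of 10 called genes in the 6 libraries, on axes from 0, with 1 line per transfection joining its library with TGF-β2 (left) to that without (right). Every line runs downward to the right for Zbp1, Irf1, H2-K1 and Tap1 and upward for the other genes, H2-D1 included.

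The remaining 9 effectors did not pass: Ifit1 (0.05), Ifit2 (-0.07), Mx1 (-0.02), Oas2 (-0.12), Oasl2 (0.015), Samd9l (-0.004), Ifi44 (-0.12), Ifi35 (-0.04) and Rtp4 (0.14). In the IFIT family, Ifit3 passed and Ifit1 and Ifit2 did not, and the difference between them was not tested. The place of Ifit1 in the table also holds the name I830012O16Rik, listed by RefSeq as Ifit3b. That name was at 34.6, 29.4 and 29.2 FPKM with TGF-β2, against 46.4, 48.8 and 44.6 FPKM without it (-0.57, adjusted p = 0.00263), beside -0.69 for its close copy Ifit3. Fragments shared between these copies could be split in ways that the table does not show.

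Of the 6 genes of ubiquitin-like and ADP-ribosyl modification, 1 rose and 1 fell. Trim25, a ubiquitin ligase gene of the RIG-I pathway, was at 14.5, 15.8 and 14.7 FPKM with TGF-β2, against 20.0, 20.1 and 17.4 FPKM without it (-0.33, adjusted p = 0.00771). Parp9, which acts with Dtx3l in ADP-ribosylation, was at 23.4, 22.8 and 24.3 FPKM with TGF-β2, against 21.1, 21.1 and 21.0 FPKM without it (0.15, adjusted p = 0.0363). Both pairs of groups lay apart, but the Parp9 call was lost whichever library was left out (0.12 to 0.17). Dtx3l is listed at the same place as Parp9 and did not pass (0.02). Isg15, the ubiquitin-like protein itself, had all libraries with TGF-β2 under those without but missed the threshold (-0.15, adjusted p = 0.0655). Usp18, which removes ISG15 from proteins (-0.01), and Parp14 (-0.07) did not pass either.

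The interferon-inducible GTPases, which attack the vacuoles of intracellular pathogens, gave 2 higher and 0 lower of 6 at a limma adjusted p under 0.05 (2 and 0 at an unadjusted p under 0.05), where 22.7% of all genes tested were higher and 27.5% lower. Irgm1 was at 86.8, 91.6 and 92.9 FPKM with TGF-β2, against 80.1, 81.4 and 79.2 FPKM without it (0.17, adjusted p = 0.0281). Irgm2 was at 13.7, 12.4 and 13.1 FPKM with TGF-β2, against 11.2, 11.6 and 11.2 FPKM without it (0.20, adjusted p = 0.0284). Neither overlapped between the groups, yet both were lost without a negative-control library (0.14 for Irgm1, 0.18 for Irgm2). The Irgm1 call was also lost without a miR-27 library (0.17), and the Irgm2 call without a miR-31 library (0.16) or when genes of any level were fitted. Igtp, listed at the same place as Irgm2 (0.10), Ifi47 (-0.06), Gbp2 (0.09) and Gbp3 (0.05) did not pass. Gbp5, which the table lists at the place of Gbp3 and which was picked after its values were seen, was at 9.35, 9.80 and 9.49 FPKM with TGF-β2, against 6.05, 6.92 and 6.43 FPKM without it (0.50, adjusted p = 0.000987).

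Antigen presentation genes rose in 3 of 9 cases and fell in 1, with a median response of 0.09. Of all genes tested, 22.7% rose and 27.5% fell, with a median of -0.02, so the counts are no result about these 9 genes. H2-K1 (mm9 chr17:34132957-34137278), a class I heavy chain gene, was at 189.6, 188 and 192 FPKM with TGF-β2, against 125, 123 and 125 FPKM without it. The 2 groups were far apart relative to the spread within them (0.61 ± 0.04, SE; adjusted p = 0.000396), and the response was 0.60, 0.61 and 0.61 with the miR-31, miR-27 and negative-control inhibitors. H2-D1, the other classical class I heavy chain gene, moved the other way. It was at 178, 179.9 and 190.2 FPKM with TGF-β2, against 206, 193 and 214 FPKM without it (-0.16, adjusted p = 0.0321). The H2-D1 groups did not overlap, but its call was lost after quantile normalization (-0.09) and without any 1 of the 6 libraries (-0.14 to -0.19). H2-K1 made up 50.2% to 51.6% of the FPKM of both genes with TGF-β2 and 37.0% to 38.9% without it.

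The place of H2-D1 in the table spans mm9 chr17:35378691-35580718 and holds 13 other names, several of them class I relatives. Among these, H2-Gs10, a RefSeq synonym of H2-Q4, was at 71.6, 65.7 and 63.0 FPKM with TGF-β2, against 50.3, 49.6 and 49.7 FPKM without it (0.41, adjusted p = 0.00261). The same synonym is listed again there as H2-gs10. This name was at 12.3, 11.3 and 8.76 FPKM with TGF-β2, against 10.4, 9.57 and 7.75 FPKM without it (0.20, limma adjusted p = 0.0144). Class I genes have near-identical stretches, and how the authors' counting shared fragments between them is not given in the sources used here, so the values of H2-K1 and H2-D1 are uncertain to that degree. The promoters of H2-K1 and H2-D1 are printed because the genes moved in opposite directions behind similar promoters: 214 of 239 aligned bases (89.5%) were identical, and neither held an ISRE or a GAS core, which says only that these letters are not in the windows. Tap1 is printed as the promoter it shares with Psmb9: the 2 genes start 226 bases apart on opposite strands, their windows share 275 bases, and no core is in either. All 3 are in lower case because nothing matched.
H2-K1, chr17:34000298-34000597, minus strand: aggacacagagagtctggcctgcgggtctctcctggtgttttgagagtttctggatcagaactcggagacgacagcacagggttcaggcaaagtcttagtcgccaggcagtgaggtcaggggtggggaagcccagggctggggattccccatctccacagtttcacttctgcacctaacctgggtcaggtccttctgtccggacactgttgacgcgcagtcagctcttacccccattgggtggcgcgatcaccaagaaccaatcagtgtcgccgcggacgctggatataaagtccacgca
H2-D1, chr17:35262844-35263143, plus strand: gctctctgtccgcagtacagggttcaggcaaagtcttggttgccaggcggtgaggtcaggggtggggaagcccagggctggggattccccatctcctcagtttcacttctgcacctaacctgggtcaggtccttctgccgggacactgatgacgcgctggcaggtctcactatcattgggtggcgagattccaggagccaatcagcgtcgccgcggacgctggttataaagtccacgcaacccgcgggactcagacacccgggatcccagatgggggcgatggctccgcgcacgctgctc
Tap1, chr17:34187306-34187605, plus strand: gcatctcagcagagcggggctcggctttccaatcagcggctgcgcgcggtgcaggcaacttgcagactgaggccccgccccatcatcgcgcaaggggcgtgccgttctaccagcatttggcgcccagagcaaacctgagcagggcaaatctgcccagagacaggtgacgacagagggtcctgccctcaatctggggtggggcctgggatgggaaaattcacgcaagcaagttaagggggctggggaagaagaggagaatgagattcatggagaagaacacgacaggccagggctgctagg

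Tap1 and Psmb9 both rose. Tap1, a subunit of the transporter that carries peptides into the endoplasmic reticulum, was at 30.9, 30.7 and 28.9 FPKM with TGF-β2, against 25.2, 24.8 and 23.7 FPKM without it (0.28 ± 0.04, adjusted p = 0.00398). Psmb9, a catalytic subunit of the immunoproteasome that cuts peptides for class I molecules, was at 13.1, 13.0 and 12.2 FPKM with TGF-β2, against 10.6, 10.9 and 9.64 FPKM without it (0.28 ± 0.04, adjusted p = 0.00501). The groups lay apart for both, and both calls held in all 12 alternative settings. Tap2, the other transporter subunit (0.10), had no overlap but did not pass, nor did Psmb8 (0.09), Psmb10 (-0.02), the peptide loading gene Tapbp (0.07) and B2m (0.08).

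Immunoproteasome subunits replace constitutive ones, and their shares can be compared in FPKM, which is per length. Psmb9 made up 7.43% to 8.92% of Psmb9 and Psmb6 with TGF-β2 and 5.69% to 6.92% without it. For Psmb8 with Psmb5 the shares were 26.0% to 26.7% with TGF-β2 and 23.6% to 25.0% without it. For Psmb10 with Psmb7 they were 9.59% to 10.1% with TGF-β2 and 8.75% to 9.43% without it. The ranges did not overlap in these 3 pairs, and how often this holds for other pairs of genes was not counted. Psmb8 (0.09) and Psmb10 (-0.02) did not pass by themselves, and their own FPKM overlapped between the groups. Of the constitutive genes, Psmb7 fell by 0.14 (-0.14, adjusted p = 0.0372) and Psmb5 and Psmb6 did not pass.

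Genes whose promoters hold an ISRE core moved in both directions. Of the 16, 2 rose, 6 fell and 8 did not pass with TGF-β2 (median -0.02). Of the 23 without one, 4 rose, 7 fell and 12 did not pass (median -0.04).

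Other genes of the same pathways show what surrounds the set. None of the 10 interferon ligand genes looked up reached the filter, and 4 of them were at 0 in all libraries. Ifne, with the highest value, was at 0.0489, 0 and 0.141 FPKM with TGF-β2, against 0.779, 0.465 and 1.05 FPKM without it. Ifnb1 was at 0.236, 0.186 and 0.0189 FPKM with TGF-β2, against 0.303, 0.355 and 0.0678 FPKM without it. The other ligands stayed at or under 0.121 FPKM, and none of the 10 was tested. Of 5 receptor genes tested, 3 rose: Ifngr1 (0.28, adjusted p = 0.00831) of the interferon-γ receptor, Il10rb (0.27), and Ifnar2 (0.21) of the type I receptor. Ifnar1 (0.08) and Ifngr2 (0.04) did not pass. Among JAK and STAT genes outside the set, Stat3 (0.58, adjusted p = 0.000486) and Jak2 (0.28) rose.

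Other regulators moved in both directions. Of 6 other interferon regulatory factors and their binding partners, 2 rose, Irf2bp2 (0.37) and Irf2 (0.23), and 2 fell, Irf8 and Irf5 (-0.48). Irf8, best known from myeloid cells, was at 6.18, 4.13 and 3.81 FPKM with TGF-β2, against 19.9, 17.4 and 17.0 FPKM without it (-1.76 ± 0.08, adjusted p = 0.00017). Of 9 genes that pass on sensing of nucleic acid, 2 rose, Rnf135 (0.43) and Ikbke (0.14), and 1 fell, Myd88 (-0.30); Tmem173, which encodes STING, had a value of -0.12 and did not pass. Of 8 feedback and clearance genes, Isg20 (0.20) rose and Socs1 (-0.53), an inhibitor of JAK kinases, and Samhd1 (-0.16) fell; Pias1 (0.07) did not pass. Of 6 NF-κB genes, Tnfaip3 (0.71) and Nfkb1 (0.37) rose, Nfkb2 (-0.54) fell and Nfkbia (-0.23) did not pass.

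Of 53 other interferon-stimulated genes tested, 12 rose and 19 fell, with a median of -0.01, where 22.7% of all genes rose and 27.5% fell, with a median of -0.02. Those with the largest changes all fell: Gbp9, a guanylate-binding protein gene (-1.12, adjusted p = 9.64e-05), Cd47 (-0.78), N4bp1 (-0.73) and Tdrd7 (-0.67). Of 14 other genes listed as class I or peptide loading, 7 rose and 2 fell, with a median of 0.11, beside the same shares and median of all genes. The largest were Tapbpl, a peptide editor of class I molecules (0.76, adjusted p = 0.00107), the chaperone gene Calr (0.57), the peptide trimming gene Erap1 (0.38) and H2-T10 (0.34). The 7 that rose include H2-Ke6 (0.32), which lies in the H2 region but is not itself a class I or peptide loading gene. Nlrc5, the transactivator of class I genes, was at 3.81, 3.45 and 3.71 FPKM with TGF-β2 and at 4.22, 3.84 and 3.98 FPKM without it, and did not pass (-0.11, adjusted p = 0.0772). Of 11 class II genes, 10 stayed under 1 FPKM in every library, and H2-DMb1 did not pass (-0.12).

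Within single transfections, differences of at least 0.5 were counted without a test. With the miR-31 inhibitor, 3 genes were higher (8.11% of all genes) and 0 lower (8.29%). With the miR-27 inhibitor, 2 were higher (7.11%) and 4 lower (7.19%). With the negative control, 2 were higher (7.43%) and 3 lower (7.37%). Zbp1 and H2-K1 were higher in all 3, and Irf1 joined them with the miR-31 inhibitor. Ifit3, Mx2 and Cmpk2 were lower with the miR-27 and negative-control inhibitors, and Rsad2 with the miR-27 inhibitor.

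The median response of the 49 genes was -0.02 with the miR-31 inhibitor, -0.08 with the miR-27 inhibitor and 0.02 with the negative control, against -0.03, -0.02 and -0.02 for all genes tested. In all, 31 of the 49 genes had the same sign in the 3 transfections. Neither this count nor the correlations below were set against all genes tested, so they are no result about the set. Across the 49 genes, which are not independent replicates and whose responses come from separate pairs of libraries, Pearson's r was 0.857 between the miR-31 and negative-control responses, 0.946 between the miR-27 and negative-control responses and 0.781 between the miR-31 and miR-27 responses.

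The second comparison asks what the inhibitors do. The mature strands of the targeted microRNAs are printed with their seeds, bases 2 to 8, in capitals, because the seed decides which RNAs a microRNA represses (RefSeq, GRCm38.p6). The label does not say which miR-27 the inhibitor targets, and miR-27a and miR-27b share a seed.
mmu-miR-31-5p: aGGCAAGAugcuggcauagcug
mmu-miR-27a-3p: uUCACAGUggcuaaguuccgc
mmu-miR-27b-3p: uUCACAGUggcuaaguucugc
A 7-base match to the miR-31 seed, TCTTGCC, was in the longest 3′ UTR (GENCODE vM21) of 3 of the 49 genes (6.12%, against 13.3% of 9550 tested genes): Mx2, Xaf1 and Trim25. A match to the miR-27 seed, ACTGTGA, was in 7 (14.3%, against 17.9%): Ifih1, Irf9, Ifit1, Ifit3, Rsad2, Irgm2 and Gbp2. The 3′ UTRs of the set were shorter, with a median of 753 bases against 1204.

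No gene of the set passed for either inhibitor. For the miR-31 inhibitor limma called 0 of 49 (0.0339% of all genes, 4 in number), with 10 of 49 at an unadjusted p under 0.05 (18.1% of all genes), 5 of them higher and 5 lower. For the miR-27 inhibitor it called 0 of 49 (0.00846% of all genes, 1 in number), with 7 of 49 at an unadjusted p under 0.05 (12.4% of all genes), 3 higher and 4 lower. When its TGF-β2 library alone stood for the miR-31 inhibitor, 4 genes passed for it: Mx2 (0.96), Irf9 (0.55), Mx1 (0.55) and Eif2ak2 (-0.32). That setting called 1137 of all genes (9.62%), so the 4 calls are no result about the set, and the lone library is assumed to vary like the other groups. The differences below are descriptions of single libraries.

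With the miR-31 inhibitor, 23 genes were above and 18 below the negative control in both TGF-β2 states. The matching shares of all genes tested were not counted, so these counts are no result about the set. Mx2 had the largest difference, at 9.63 FPKM with the miR-31 inhibitor and 4.71 FPKM with the negative control under TGF-β2 (0.90), and at 11.1 FPKM with the inhibitor and 8.64 FPKM with the negative control without TGF-β2 (0.33). Irf9 was at 44.1 FPKM with the inhibitor and 30.5 FPKM with the negative control under TGF-β2 (0.52), and at 35.1 FPKM with the inhibitor and 30.5 FPKM with the negative control without TGF-β2 (0.20). Ifi44 was at 26.8 FPKM with the inhibitor and 22.9 FPKM with the negative control under TGF-β2 (0.22), and at 26.9 FPKM with the inhibitor and 23.02 FPKM with the negative control without TGF-β2 (0.21). In all 3 genes the inhibitor's library was the higher one in both states.

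Zbp1, Eif2ak2 and Oas2 were furthest below the negative control with the miR-31 inhibitor in both states. Zbp1 was at 9.05 FPKM with the inhibitor and 11.5 FPKM with the negative control under TGF-β2 (-0.31), and at 3.65 FPKM with the inhibitor and 4.95 FPKM with the negative control without TGF-β2 (-0.35). Eif2ak2 was at 46.4 FPKM with the inhibitor and 58.7 FPKM with the negative control under TGF-β2 (-0.33), and at 50.0 FPKM with the inhibitor and 57.8 FPKM with the negative control without TGF-β2 (-0.21). Oas2, another oligoadenylate synthetase gene, was at 2.16 FPKM with the inhibitor and 2.76 FPKM with the negative control under TGF-β2 (-0.25), and at 2.55 FPKM with the inhibitor and 3.07 FPKM with the negative control without TGF-β2 (-0.20).

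The miR-27 inhibitor gave several of the same names, and both inhibitors are set against the same negative-control libraries. With it, 18 genes were above and 14 below the negative control in both states, again without the shares of all genes tested. Mx2 was at 6.17 FPKM with the miR-27 inhibitor and 4.71 FPKM with the negative control under TGF-β2 (0.33), and at 13.5 FPKM with the inhibitor and 8.64 FPKM with the negative control without TGF-β2 (0.59). Irf9 was at 34.0 FPKM with the inhibitor and 30.5 FPKM with the negative control under TGF-β2 (0.15), and at 36.9 FPKM with the inhibitor and 30.5 FPKM with the negative control without TGF-β2 (0.27). Rsad2, whose values in every library stand above, was higher by 0.15 with TGF-β2 and by 0.27 without it. Lower in both states were Oas2, Eif2ak2 and Cmpk2. Oas2 was at 2.17 FPKM with the inhibitor and 2.76 FPKM with the negative control under TGF-β2 (-0.25), and at 2.32 FPKM with the inhibitor and 3.07 FPKM with the negative control without TGF-β2 (-0.29). Eif2ak2 was at 48.3 FPKM with the inhibitor and 58.7 FPKM with the negative control under TGF-β2 (-0.28), and at 49.6 FPKM with the inhibitor and 57.8 FPKM with the negative control without TGF-β2 (-0.22). Cmpk2 differed by -0.22 with TGF-β2 and by -0.14 without it.

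**Figure D4:**
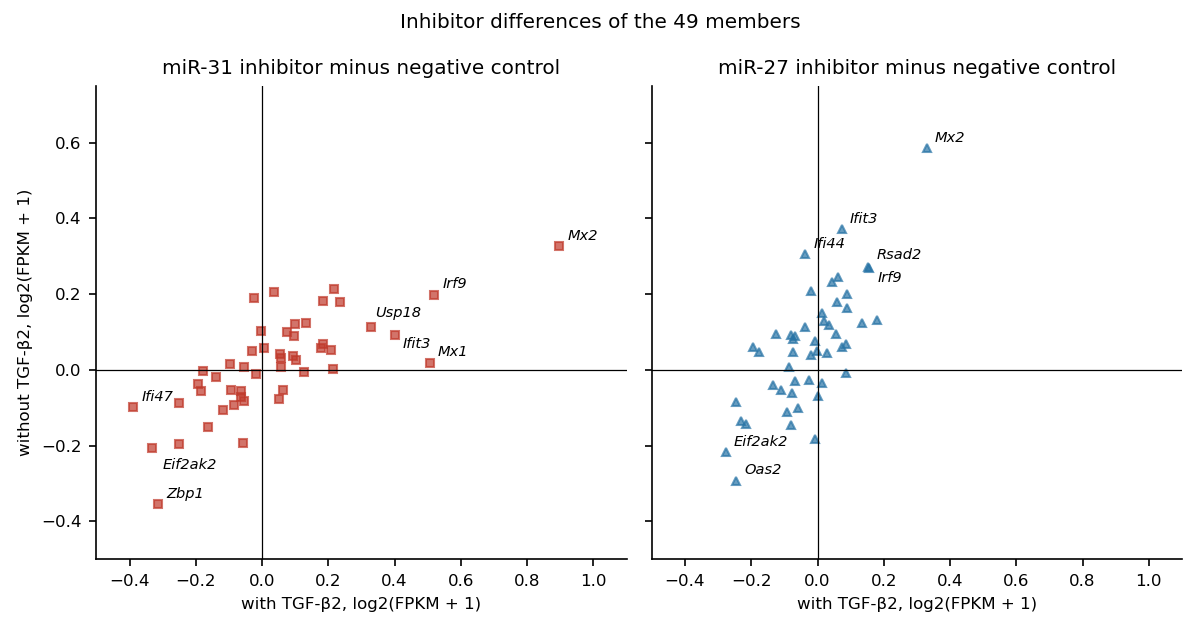
Difference of each gene between an inhibitor and the negative control, in log2(FPKM + 1), with TGF-β2 on the horizontal and without TGF-β2 on the vertical axis; each point is 1 gene and rests on 1 library per condition. Mx2 lies furthest out, at 0.90 and 0.33 in the miR-31 panel and at 0.33 and 0.59 in the miR-27 panel.

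Differences of at least 0.5 from the negative control were few. With the miR-31 inhibitor and TGF-β2 there were 3 (3.46% of all genes): Irf9, Mx1 and Mx2, all higher. With the miR-31 inhibitor and no TGF-β2 there were 0 (1.05%). With the miR-27 inhibitor there were 0 with TGF-β2 (0.863%) and 1, Mx2, without it (1.07%).

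The response of Mx2 to TGF-β2 was -0.18 with the miR-31 inhibitor, -1.01 with the miR-27 inhibitor and -0.76 with the negative control. It was the only one of the 49 genes whose response in 1 transfection lay at least 0.5 from both others. The miR-31 response did so for 217 of all 11816 genes tested, so this is no result about the set. The TGF-β2 library of the miR-31 inhibitor also differed in genes outside the set. A list of 10 genes of the amino acid stress response, such as Atf4, Trib3 and Chac1, had a median of 1.72 above the negative control with TGF-β2 and of 0.38 without it. For the miR-27 inhibitor these medians were 0.55 and 0.38. Its part in the values of Mx2, Mx1, Irf9 and Usp18 was not tested, nor was whether the responses of these genes differ between the transfections.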

How the data were processed

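RNA of MS-1 cells was sequenced after depletion of ribosomal RNA, as 6 directional libraries, per the labels' protocols. The authors deposited FPKM per gene name, made with TopHat2 2.0.9, Cufflinks 2.1.1 and mm9 per the submitters' processing notes. The annotation and the counting of shared fragments are not given in the sources used here. The table holds no counts, so depth is unknown and no interval on counts was made. Each library listed 11680 to 11791 genes at 1 FPKM or more.

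FPKM were not rescaled and were analysed as log2(FPKM + 1), a pseudocount that understates changes of low genes. All 11816 genes averaging 1 FPKM or more were fitted with limma 3.58.1 in R 4.3.3, with inhibitor and TGF-β2 as additive terms, 2 residual and 2.87 prior degrees of freedom, 2-sided tests and Benjamini-Hochberg adjustment. The residual spread holds any true dependence of the TGF-β2 response on the inhibitor. The fit was tested on simulated data of 11816 genes, of which 11616 were unchanged and 50 were planted per size of change. There it called 66% of planted TGF-β2 changes of 0.5 and 12% of those of 0.25. In the data 5926 genes were called, which makes the adjusted threshold less strict than in the simulation. These shares therefore do not give the sensitivity of the test on the data. Pairs of libraries had no test. Alternatives were another pseudocount, other filters, median-of-ratios and quantile scaling, limma's trend and robust options, and leaving out each library.

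Values in every library were given for genes called for TGF-β2, the 5 most abundant, those with the largest inhibitor differences of the same sign in both states, and those whose response stood apart. Other lists were represented by the 4 tested genes with the largest change plus Nlrc5 and the interferon receptors. A further gene of that rule is not reported here. The genes of the set and the other lists were chosen with earlier results of these data known. Gene places are mm9 and promoters GRCm38.p6, and the builds were not mixed.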

Additional observations from a re-analysis of the deposited data

Results flagged for a closer look

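The TGF-β2 response of 3 of the 49 genes (6.12%, against 5.83% of all genes tested) pointed in opposite directions with the miR-31 and the miR-27 inhibitor, by at least 0.1 each way on the log2(FPKM + 1) scale. Each response rests on 1 library per condition, and the difference between the responses was not tested. Irf9 had a response of 0.32 with the miR-31 inhibitor, -0.12 with the miR-27 inhibitor and 0.00 with the negative control. Mx1, near the lower limit of the table, had 0.36, -0.28 and -0.13. Usp18 had 0.20, -0.21 and -0.02. In all 3 genes the TGF-β2 library of the miR-31 inhibitor held the highest of the 6 values: 44.1 FPKM for Irf9, 1.65 FPKM for Mx1 and 56.5 FPKM for Usp18.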

How the results depend on the processing

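The TGF-β2 comparison is already paired by transfection, through the inhibitor term of the fit; the labels give no replicate numbers for a further block. Of the 22 called genes, 12 kept their call in all 12 alternative settings, 10 lost it in at least one, and 0 changed sign. Leaving out each library in turn gave 5 to 6 genes higher, against 8 with all libraries, and 8 to 15 lower, against 14. Over all genes it gave 3566 to 6087 calls, against 5926. The counts fell furthest without a negative-control library, to 5 higher and 8 lower of 3566 in all, and without a miR-27 library 9 were lower of 3917 in all. The library left out and its partner gave the same TGF-β2 fit, since the transfection then carries no information on TGF-β2. When the miR-31 inhibitor was represented by its TGF-β2 library alone, 4 genes passed for the miR-31 inhibitor, against 0: Mx2 (0.96), Irf9 (0.55), Mx1 (0.55) and Eif2ak2 (-0.32). Over all genes that setting called 1137, against 4, with the lone library assumed to vary like the other groups. Without 1 of the 2 miR-31 libraries, the uncalled response of Irf9 to TGF-β2 (0.07) was -0.057, and Isg15 (-0.20) and Mx1 (-0.21) passed as lower. The Irf9 response was up to 0.16 without a miR-27 library. Counts were 8 higher and 13 lower after median-of-ratios rescaling, 11 and 13 after quantile normalization, which added B2m, Psmb8 and Rtp4 as higher and Oas2 as lower, 7 and 12 without a filter, and 8 and 15 with trend and robust options, which added Isg15. A pseudocount of 0.1 or a filter of 0.1 FPKM left both counts as they were. At differences of at least 1 in place of 0.5, 1 gene remained past the limit in each TGF-β2 pair and 0 in the inhibitor pairs. The cause of these shifts was not tested. In simulated data with the same layout of 6 libraries but 11616 genes unchanged, 12% of planted TGF-β2 changes of 0.25 were called. That share does not give the sensitivity on the data, where far more genes were called.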
